A study of Mus musculus with 8 samples.

Results

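The genes described here are 10 genes of the osteoblast lineage, the cells that build bone: the transcription factor genes *Sp7*, *Dlx5*, *Dlx6*, *Msx2* and *Atf4*, the enzyme gene *Alpl*, and the matrix protein genes *Bglap*, *Spp1*, *Ibsp* and *Sparc*. They were taken by name from a fixed list, 10 of the 22367 protein-coding genes annotated in GENCODE vM1 on the mouse build mm9. The rule itself uses positions only, although the list was drawn up with earlier results of these data known. ATAC-seq reads out open chromatin: Tn5 transposase inserts sequencing adapters preferentially where DNA is accessible. All 7 libraries, titled ATAC1 to ATAC7, came from C57BL/6J mice, genotype wild type, taken at 6 weeks post natal, and held bone marrow derived stromal cells with no treatment named. The study sorted stromal cells by surface markers into subpopulations and asked how their chromatin differed, but the labels tie no title to a population, and the number of mice behind a library was not given. An Input library was the common control for every peak list. Each title has 1 library, so every difference below is between single libraries and no replicate check exists.

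Osteoblasts arise from marrow stromal progenitors under the control of Runx2 and, downstream of it, Sp7. They deposit a collagen matrix with non-collagenous proteins such as osteocalcin, osteopontin and bone sialoprotein, and mineralise it with the help of alkaline phosphatase. The start site of a gene that a cell can transcribe is often open, and open regions away from start sites often include enhancers. Accessibility alone does not show transcription.

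In brief, open chromatin at the start sites of these genes was called mainly in ATAC2, ATAC5 and ATAC6, the libraries with the 3 longest peak lists. ATAC6 called 7 of the 10 genes (51.5% of all protein-coding genes), ATAC2 6 (50.2%) and ATAC5 4 (52.7%). *Dlx5*, *Dlx6* and *Sparc* had a start-site peak in exactly those 3 libraries. *Msx2* had one in ATAC2 and ATAC6, *Alpl* in ATAC5 and ATAC6, *Spp1* in ATAC1, ATAC2 and ATAC6, and *Atf4* in ATAC2, ATAC4, ATAC6 and ATAC7. For *Sp7*, *Bglap* and *Ibsp*, none of the 7 libraries had one. ATAC1, ATAC3, ATAC4 and ATAC7 each called 0 or 1 of the 10, against 42.0% to 49.0% of all protein-coding genes.

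A start-site peak is a called peak whose centre lay within 1000 bases of an annotated start site of the gene. Such peaks were found in 20 of the 70 pairs of a gene and a library, and 7 of the 10 genes had one in at least 1 library, against 56.7% of all protein-coding genes. None of the 10 had one in every library, against 36.8% of all protein-coding genes. By library, ATAC6 called 7 of the 10 (51.5% of all protein-coding genes), ATAC2 called 6 (50.2%) and ATAC5 called 4 (52.7%). ATAC1 called 1 (49.0%), ATAC4 called 1 (43.7%), ATAC7 called 1 (42.0%) and ATAC3 called 0 (43.5%). Thus the share of all genes lay between 42.0% and 52.7% across libraries, while the count of these 10 ranged from 0 to 7. The median gene of the 10 was called in 2.5 libraries and the median protein-coding gene in 3.0, since most genes were called in all libraries or in none: 36.8% had all 7 and 43.3% had none.

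**Figure D1:**
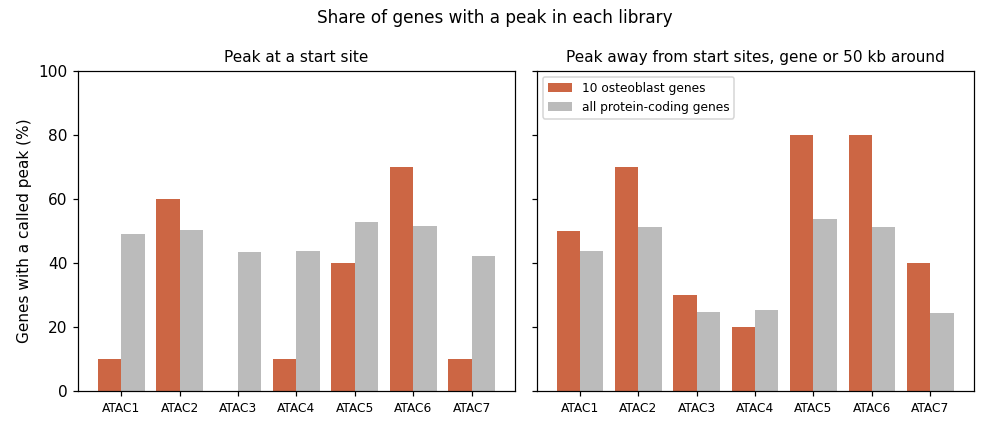
Bars give the percent of genes with a called peak in each library (x axis), for the 10 osteoblast genes and for all protein-coding genes, at start sites (left) and away from them (right). At start sites the osteoblast genes reach 7 of 10 in ATAC6 and 0 in ATAC3, while the grey bars stay between 42.0% and 52.7%.

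The libraries differed in size and strength. They held 15188 (ATAC7) to 32280 (ATAC2) peaks, and the 3 longest lists were those of ATAC2, ATAC5 and ATAC6, which also had the highest median folds over Input. The part of list length in the results was not tested, but when every list was cut to its 15188 best-ranked peaks, the pairs with a start-site peak fell from 20 to 12, with 5 genes in ATAC6, 3 in ATAC2, 2 in ATAC5, 1 each in ATAC4 and ATAC7 and 0 in ATAC1 and ATAC3. *Dlx5* and *Sparc* then still had 3 libraries and *Atf4* 4, while *Dlx6* and *Msx2* had 1 each, ATAC6, and *Alpl* and *Spp1* had 0. Reads are known only inside called peaks, whose weakest held 21 to 28 reads, so a missing peak means that nothing passed the caller there, not that the site was closed. In a mixed sample, fewer open cells and less open chromatin per cell cannot be told apart. Of 7 stromal marker genes (*Pdgfra*, *Pdgfrb*, *Cxcl12*, *Lepr*, *Prrx1*, *Twist2*, *Ebf3*), start-site peaks were called for 1 (ATAC3) to 5 (ATAC5). *Lepr* and *Prrx1* had none in any library. Of 9 haematopoietic markers found in the annotation, 2 to 6 were called, most in ATAC5 (6) and ATAC3 (5), then ATAC1 (4), ATAC6 (3) and the other libraries (2 each). *Ikzf1*, a lymphoid factor, was called in all 7, and *Ptprc*, the pan-leukocyte gene, in ATAC1, ATAC3, ATAC5 and ATAC7. The 5 endothelial markers had 2 calls in ATAC5 (*Kdr* and *Pecam1*) and 0 in the other libraries. The study's sort gated out cells with the leukocyte antigen CD45, the endothelial antigen CD31 and the erythroid antigen TER119. The part of other cell types in the results was not tested.

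Among the transcription factors, *Sp7* encodes osterix, a zinc finger factor without which osteoblasts do not form. It lies at chr15:102187040-102197285 on the minus strand and has 2 annotated start sites. No library had a peak nearer to them than 10017 bases. At that distance upstream lay the single region away from start sites that was called in every library, chr15:102207302-102207812, between genes. ATAC1 had 76 reads against 29 of Input there, ATAC2 93 against 27, ATAC3 99 against 37 and ATAC7 78 against 26. Each of the other 3 libraries was called as 2 adjacent peaks, with 78 and 51 reads in ATAC4, 151 and 81 in ATAC5, and 164 and 70 in ATAC6. Scaled by a constant recovered for each library, the library exceeded Input by 2.6 times (95% interval 1.72 to 4.01) in the larger ATAC4 peak and by 5.78 times (2.9 to 12.8) in the smaller. In ATAC5 it did so by 5.75 times (4.1 to 8.21) in the larger peak and by 9.91 times (5.58 to 18.9) in the smaller. All intervals given here are exact (Clopper-Pearson) and cover counting error only. The caller reports reads in an outer region from which the peak is cut, and neighbouring outer regions can share reads, so reads of adjacent peaks are not added.

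A second upstream region, about 33 kb from the *Sp7* start at chr15:102229949-102230553, was called in 5 libraries. It held 104 reads in ATAC1, 85 in ATAC3, 98 in ATAC5, 90 in ATAC6 and 97 in ATAC7, and it had no peak in ATAC2 or ATAC4. A peak beyond the 3′ end of the gene at chr15:102185463-102186151 was called only in ATAC2 (71 reads), ATAC5 (82) and ATAC6 (90). ATAC5 called chr15:102208313-102208521, with 123 reads against 35, and next to it ATAC2 called chr15:102208534-102208562, with 45 against 17, inside the outer region of the ATAC5 peak. The neighbouring nucleoporin gene *Aaas*, whose start-site region lay 16018 bases downstream of the *Sp7* start, was called in all 7 libraries. The neighbour *Sp1*, which encodes a general GC-box factor, had the most reads of any region in the *Sp7* window, 1707 in ATAC2, 2150 in ATAC4, 3337 in ATAC5 and 4588 in ATAC6, and no call in ATAC1, ATAC3 or ATAC7.

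The middle 250 bases of the region that all libraries shared upstream of *Sp7* are given 5′ to 3′ on the strand of the gene, from chr15:102207432-102207681 of mm9. Capitals mark matches to a TATA box and a CCAAT box, and the GC content was 61.2%, against a median of 53.2% over all merged regions.
Sp7 upstream region: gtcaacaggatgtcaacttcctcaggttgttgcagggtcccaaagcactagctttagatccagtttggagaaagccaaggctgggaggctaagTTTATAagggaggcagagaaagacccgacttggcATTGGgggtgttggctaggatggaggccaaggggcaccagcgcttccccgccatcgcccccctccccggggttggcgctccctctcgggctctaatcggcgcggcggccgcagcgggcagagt

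*Dlx5* and *Dlx6* encode distal-less homeodomain factors that act in the skull, jaw and limb skeleton. They lie end to end at chr6:6827805-6832085 (*Dlx5*, minus strand) and chr6:6813334-6818568 (*Dlx6*, plus strand), so their windows largely coincide. Both were called in ATAC2, ATAC5 and ATAC6 only. The *Dlx5* start-site peak held 157 reads against 38 of Input in ATAC2, 186 against 55 in ATAC5 and 115 against 32 in ATAC6. Its scaled ratios of 6.53 (4.56 to 9.57), 5.79 (4.27 to 7.98) and 5.66 (3.8 to 8.66) had overlapping intervals, so no difference between the 3 libraries was shown beyond counting error. The peaks sat on both sides of the start: the ATAC2 and ATAC6 peaks, at chr6:6832107-6832144 and chr6:6832112-6832174, lay just upstream, and the ATAC5 peak at chr6:6831702-6832079 lay inside the gene, centred in its untranslated region.

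At *Dlx6* the best-ranked start-site peak held 151 reads against 42 in ATAC2, 83 against 22 in ATAC5 and 130 against 26 in ATAC6. The ratios were 5.68 (4.01 to 8.2), 6.46 (4.0 to 10.9) and 7.87 (5.14 to 12.5), again with overlapping intervals. ATAC6 had 2 further peaks inside the gene, at chr6:6813562-6813602 with 95 reads against 20 and at chr6:6813869-6813907 with 114 against 25. The antisense noncoding gene *Dlx6os1* overlaps *Dlx6*, and a peak at a start site of that gene (chr6:6780396-6780626) was called in ATAC5 alone, with 58 reads. In ATAC1, ATAC3, ATAC4 and ATAC7 no peak was called anywhere in either window: the nearest lay 73461 to 73869 bases from the *Dlx5* start and 61159 to 92029 bases from the *Dlx6* start.

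Between both genes, chr6:6824308-6824931 was called in ATAC2, with 2 peaks of 123 reads each, and in ATAC6, with peaks of 110 and 71 reads. Upstream of *Dlx5*, 3 separate peaks lay within 273 bases (chr6:6834885-6835157): ATAC2 had 123 reads against 8 of Input, ATAC6 73 against 14 and ATAC5 74 against 8. The ATAC2 ratio of 24.3 (11.9 to 57.5) lay above the ATAC2 interval at the start site, on few Input reads. The ATAC5 ratio of 15.8 (7.64 to 38.1) was higher than at the start site too, but its interval overlaps the ATAC5 interval there. Because the called cores did not share a base, this stretch counts as 3 regions of 1 library each, with outer regions of 253 to 432 bases. The stretch is shown because it carries the highest ratios of the locus, as 250 bases from chr6:6834896-6835145 on the strand of *Dlx5*. It held none of the motifs searched.
Dlx5 upstream stretch: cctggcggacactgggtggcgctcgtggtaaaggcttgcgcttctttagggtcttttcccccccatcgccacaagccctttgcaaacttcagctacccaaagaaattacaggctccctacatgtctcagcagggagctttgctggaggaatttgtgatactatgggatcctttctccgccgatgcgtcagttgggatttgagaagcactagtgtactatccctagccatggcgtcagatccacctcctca

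*Msx2* encodes a homeodomain repressor that acts in skull growth. It lies at chr13:53562250-53568443 on the minus strand. Its window held a single region, the start-site peak at chr13:53568165-53568261, centred in the untranslated region. ATAC2 had 46 reads against 17 and ATAC6 had 90 against 36, with ratios of 4.28 (2.4 to 7.95) and 3.94 (2.65 to 5.97), which overlap. No other library had a peak nearer to the start site than 95581 bases. *Msx2* was thus the gene with the fewest peaks, 2 in all libraries together.

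*Atf4* encodes a basic leucine zipper factor that controls amino acid supply and the stress response in many cells and promotes osteocalcin expression in osteoblasts. It lies at chr15:80085614-80087970 on the plus strand. Its best-ranked start-site peak held 360 reads in ATAC2, 833 in ATAC4, 1494 in ATAC6 and 661 in ATAC7, the most of any of the 10 genes in each of those libraries. ATAC2 had a second start-site peak just upstream, chr15:80085516-80085646, with 291 reads against 35 of Input. At the best-ranked peaks Input reads were high as well, 96, 123, 137 and 121, where the start-site peaks of the other genes had 12 to 55. The scaled ratio was 17.2 (14.4 to 20.6) in ATAC6, above the intervals of ATAC4 (7.67, 6.34 to 9.35), ATAC7 (6.03, 4.96 to 7.38) and the best-ranked ATAC2 peak (5.93, 4.72 to 7.5). Over all peaks, the median fold was 10.1 in ATAC6, 9.27 in ATAC2, 6.13 in ATAC4 and 5.97 in ATAC7. The second ATAC2 peak had a ratio of 13.1 (9.23 to 19.2), an interval that overlaps that of ATAC6. Per kb of outer region, scaled reads came to 1620 in ATAC6, 780 in ATAC4, 604 in ATAC7, and 757 and 912 in both ATAC2 peaks.

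In ATAC1, ATAC3 and ATAC5 the nearest peaks lay 2986, 8550 and 8565 bases from an *Atf4* start site. Among the 2639 merged regions of the genome with at least 360 reads in each library that called them, 1930 were called in all 7 libraries and 328 in 4 to 6, so *Atf4* belongs to a minority of strong regions with such gaps. The set ATAC2, ATAC4, ATAC6 and ATAC7 was shared by 3 other genes. The neighbours *Smcr7l* and *Rps19bp1* were called in all 7 libraries. Away from start sites, the *Atf4* window held 1 peak in ATAC3 (59 reads, chr15:80049749-80049871) and 1 in ATAC1 (38 reads, chr15:80088917-80088925).

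*Alpl*, the only enzyme gene of the set, encodes tissue-nonspecific alkaline phosphatase, which removes the mineralisation inhibitor pyrophosphate. It lies at chr4:137297648-137352299 on the minus strand and has 8 annotated start sites. Its start-site peak was called in ATAC5, with 63 reads against 26, and in ATAC6, with 120 against 52. Ratios of 4.15 (2.59 to 6.83) and 3.63 (2.6 to 5.13) were, with those of *Msx2*, the lowest at a start site, and none of these 4 peaks reached a fold of 5. More libraries called an intronic region about 7.6 kb inside the gene, chr4:137344511-137344837: ATAC1 (126 reads against 25), ATAC3 (79 against 21), ATAC5 (160 against 25), ATAC6 (58 against 14) and ATAC7 (56 against 19). The ATAC1 and ATAC7 peaks in it lay 3366 bases upstream of another annotated start site of *Alpl*. The ratio in the intronic region was 11 (7.16 to 17.4) in ATAC5 and 3.25 (1.9 to 5.8) in ATAC7, intervals that do not overlap. The median fold over all peaks differed in the same direction, 10.9 in ATAC5 and 5.97 in ATAC7. ATAC4 called no peak at all in the window, and ATAC2 called 1, at chr4:137291382-137291558 beyond the 3′ end, with 98 reads.

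The middle 250 bases of the *Alpl* intronic region, chr4:137344549-137344798, are shown on the strand of the gene as the sequence behind the most widely called peak of this gene. Capitals mark a match to the CCAAT box.
Alpl intronic region: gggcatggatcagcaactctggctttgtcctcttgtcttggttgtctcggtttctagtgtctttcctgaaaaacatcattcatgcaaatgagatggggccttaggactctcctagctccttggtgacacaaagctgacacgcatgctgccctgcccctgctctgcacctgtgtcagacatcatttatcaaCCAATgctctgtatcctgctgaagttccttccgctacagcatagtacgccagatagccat

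**Figure D2:**
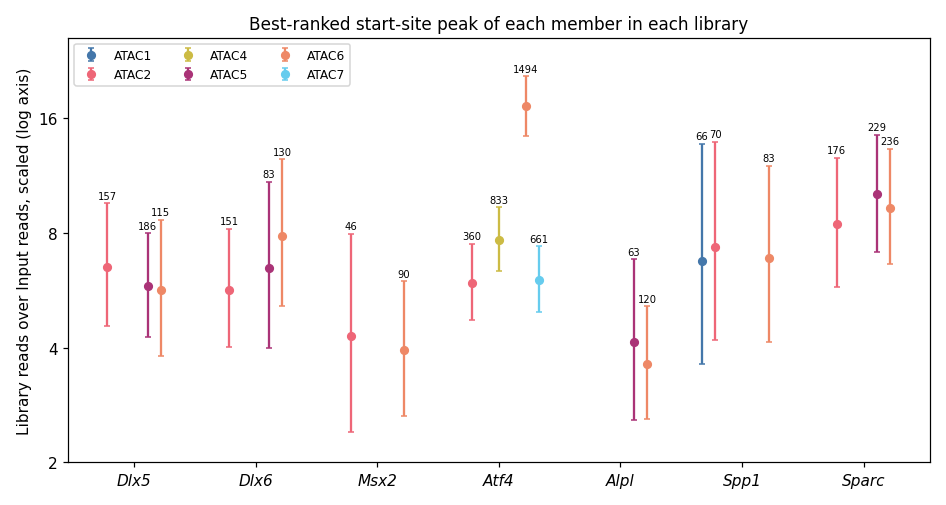
Points give, on a log axis, library reads over Input reads, scaled by a constant of each library, in the best-ranked start-site peak of 7 genes (x axis), coloured by library, with 95% exact intervals for counting error. Numbers above are library reads, and a library without a point had no called peak. *Atf4* in ATAC6 (17.2) stands above all other points, and *Alpl* and *Msx2* lie lowest, between 3.63 and 4.28.

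Among the matrix proteins, *Sparc* encodes osteonectin, a collagen- and calcium-binding protein abundant in bone and also made by other connective tissue cells. It lies at chr11:55208002-55233582 on the minus strand. Its start-site peak held 176 reads against 33 in ATAC2, 229 against 39 in ATAC5 and 236 against 40 in ATAC6, with ratios of 8.43 (5.78 to 12.6), 10.1 (7.14 to 14.5) and 9.29 (6.62 to 13.3). The intervals of these 3 values overlap. An intronic region about 1.9 kb into the gene (chr11:55231555-55231887) was called in ATAC1 with 52 reads, ATAC2 with 69, ATAC5 with 123 and ATAC7 with 54. With a limit of 2000 in place of 1000 bases, the ATAC1 and ATAC7 peaks counted as start-site peaks of *Sparc*, which then had 5 libraries.

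The most widely called distal region of *Sparc* lay about 8.3 kb upstream, chr11:55241705-55242006, in every library but ATAC3. ATAC1 had 167 reads against 22, ATAC2 129 against 16, ATAC4 65 against 14, ATAC5 275 against 21 and ATAC7 188 against 16, while ATAC6 had 2 peaks of 50 and 76 reads. The ratio of 22.4 (14.4 to 36.8) in ATAC5 exceeded that of 5.26 (2.92 to 10.1) in ATAC4 beyond counting error. Over all peaks, the median fold over Input was also higher in ATAC5 (10.9) than in ATAC4 (6.13). A region about 5.1 kb upstream, chr11:55238632-55238779, was called in ATAC2 (94 reads), ATAC5 (67) and ATAC6 (77), and an adjacent peak with an overlapping outer region, chr11:55238524-55238629, in ATAC7 (46). Another about 17.9 kb upstream, chr11:55251306-55251716, was called in ATAC2 (113) and ATAC6 (107). The most-read region of a single library was chr11:55219459-55219686 in an intron, with 138 reads in ATAC5. *Sparc* had the most regions of the 10 genes, 15, of which 12 lay away from the start sites of other genes. Its neighbours *Atox1* and *G3bp1* were called in all 7 libraries.

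Shown are 250 bases of the upstream *Sparc* region, chr11:55241730-55241979, on the strand of the gene. Capitals mark TGAATCA, a match to TGANTCA, the letters searched for AP-1, in which N allows any base.
Sparc upstream region: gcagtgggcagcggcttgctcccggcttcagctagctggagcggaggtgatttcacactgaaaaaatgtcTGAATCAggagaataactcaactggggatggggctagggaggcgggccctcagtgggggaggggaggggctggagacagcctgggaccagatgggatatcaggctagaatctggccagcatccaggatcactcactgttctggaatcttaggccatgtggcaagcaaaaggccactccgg

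*Spp1* encodes osteopontin, an acidic phosphoprotein that binds mineral and integrins. It lies at chr5:104864137-104870069 on the plus strand. Its start-site peak held 66 reads against 12 in ATAC1, 70 against 15 in ATAC2 and 83 against 19 in ATAC6, with ratios of 6.76 (3.62 to 13.7), 7.37 (4.18 to 13.9) and 6.88 (4.14 to 12). The intervals overlap almost entirely, and *Spp1* is the only one of the 10 genes with a start-site peak in ATAC1. In ATAC5 the start site had no call, although ATAC5 called 4 regions of the window away from start sites. ATAC2 called 5 such regions, ATAC6 called 1 and the other libraries called none. The region chr5:104882260-104882436, downstream of the gene, was called in ATAC2 (96 reads), ATAC5 (88) and ATAC6 (111). Regions at chr5:104854993-104855092 (83 and 87 reads) and chr5:104894408-104894549 (75 and 94 reads) were called in ATAC2 and ATAC5. The neighbour *Pkd2* was called in all libraries but ATAC4.

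The start-site region is shown for *Spp1* as 250 bases from chr5:104863829-104864078, which end before the first annotated exon. Capitals mark 2 matches to TATAAA, the letters searched for the TATA box, at bases 8 to 13 and 91 to 96 of the stretch. They also mark 1 match to the RUNX motif, the site type bound by Runx2.
Spp1 start-site region: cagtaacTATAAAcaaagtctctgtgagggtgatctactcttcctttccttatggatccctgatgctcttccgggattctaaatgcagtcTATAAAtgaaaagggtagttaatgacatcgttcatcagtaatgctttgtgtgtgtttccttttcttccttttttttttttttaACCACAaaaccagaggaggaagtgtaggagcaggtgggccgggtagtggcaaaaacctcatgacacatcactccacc

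*Ibsp* encodes bone sialoprotein, a marker of mineralising osteoblasts. It lies on the same chromosome as *Spp1* at chr5:104728190-104740488, plus strand. No library had a peak nearer to its start site than 29293 bases, and in ATAC1, ATAC3 and ATAC4 no peak was called in its window. The nearest peak, chr5:104757483-104757653 in ATAC2, lay in an intron of *Mepe*, which encodes a matrix phosphoglycoprotein of osteocytes. It held 119 reads against 4 of Input, a ratio of 47.0 with a wide interval of 17.9 to 175. Further downstream, chr5:104774361-104774539 was called in ATAC2 (50 reads against 6), ATAC5 (48 against 3) and ATAC6 (54 against 4). An upstream region, chr5:104681021-104681213, was called in ATAC5 (42 reads) and ATAC7 (57). The start site of *Mepe* itself was called in none of the libraries.

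The *Mepe* intronic region is shown because it has the highest ratio of the 10 windows among peaks away from start sites with over 100 reads. The 250 bases from chr5:104757443-104757692 on the plus strand begin in a CA repeat and hold none of the motifs searched.
Ibsp downstream region: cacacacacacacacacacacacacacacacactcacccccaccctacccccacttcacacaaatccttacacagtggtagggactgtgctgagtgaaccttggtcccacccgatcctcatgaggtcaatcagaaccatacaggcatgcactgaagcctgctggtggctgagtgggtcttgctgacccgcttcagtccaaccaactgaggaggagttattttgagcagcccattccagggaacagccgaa

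*Bglap* encodes osteocalcin, the vitamin K dependent protein of mature osteoblasts. It lies at chr3:88187423-88188386 on the minus strand, near its close copy *Bglap2*. Neither gene had a called peak at its start site. The nearest peak lay 10914 bases away in ATAC5, where an intron of *Pmf1* held 73 reads against 28 (chr3:88199300-88199469), and 25429 to 25631 bases away in the other libraries. Most other peaks of the window were at start sites of other genes: *Pmf1*, *Slc25a44* and *Smg5* were called in all 7 libraries. Away from start sites, a region in *Smg5*, chr3:88141350-88141463, was called in ATAC1 (59 reads) and ATAC6 (52). The single-library region with the most reads was at *Smg5* too, chr3:88140485-88140695 in ATAC1 with 244 reads.

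The upstream sequence of *Bglap* is nearly that of *Bglap2*, and how the authors placed reads that match more than once was not stated. The 250 bases upstream of *Bglap* (chr3:88188387-88188636) and of *Bglap2* (chr3:88182622-88182871), both on the minus strand, differ at 10 positions, an identity of 96.0%. Capitals mark the bases that differ.
Bglap upstream: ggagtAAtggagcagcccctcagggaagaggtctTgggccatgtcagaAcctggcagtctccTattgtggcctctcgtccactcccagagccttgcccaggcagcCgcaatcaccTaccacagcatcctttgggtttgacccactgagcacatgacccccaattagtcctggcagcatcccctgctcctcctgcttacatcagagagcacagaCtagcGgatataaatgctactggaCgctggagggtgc
Bglap2 upstream: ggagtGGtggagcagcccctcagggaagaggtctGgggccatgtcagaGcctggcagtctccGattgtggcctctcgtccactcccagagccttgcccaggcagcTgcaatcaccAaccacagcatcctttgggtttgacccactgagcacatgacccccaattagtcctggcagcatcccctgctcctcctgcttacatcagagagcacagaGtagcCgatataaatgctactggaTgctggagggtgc

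Motif matches in the 6 printed peak regions were few. Letters were searched on both strands, and each motif's share is that of all 50683 merged regions with a match in their middle 250 bases. The RUNX motif TGTGGT was in 20.7% of regions and the homeodomain motif TAATTA in 3.69%. The Sp motif GGGCGG was in 27.9% and the partial cyclic AMP response element TGACGT in 5.72%. The letters TGANTCA searched for AP-1, with any base at N, were in 18.7%. The TATA box TATAAA was in 7.24% and the box CCAAT in 26.1%. Among the 30406 regions away from start sites, the class of all printed regions but that of *Spp1*, the shares were 27.0% for RUNX, 5.03% for homeodomain, 11.5% for Sp, 4.81% for the response element, 26.9% for AP-1, 9.23% for the TATA box and 26.2% for CCAAT. RUNX and AP-1 each matched 1 of the 6 printed regions, the TATA box and CCAAT each 2, and the other 3 motifs none. These are matches of letters, and binding was not measured.

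Around the 10 genes, each taken with 50 kb on both sides, the peaks of all libraries merged into 71 regions, of which 9 lay at start sites of the 10 genes, 20 at start sites of other genes and 42 away from start sites. Regions at the start sites of other genes differed less across libraries: 14 in ATAC5, 14 in ATAC6, 12 in each of ATAC1, ATAC2 and ATAC3, 10 in ATAC4 and 9 in ATAC7. Regions away from start sites differed more: 20 were called in ATAC2, 21 in ATAC5 and 20 in ATAC6, against 9 in ATAC1, 7 in ATAC7, 4 in ATAC3 and 2 in ATAC4. With every list cut to 15188 peaks, the peaks away from start sites in the windows numbered 7 in ATAC7, 5 in ATAC5, 4 each in ATAC1 and ATAC3, 3 each in ATAC4 and ATAC6 and 1 in ATAC2, and all window peaks together 15 to 18 in each library. Of the 42 regions, 37 were called in at least 1 of ATAC2, ATAC5 and ATAC6, against 86.5% of regions away from start sites near all protein-coding genes, and 22 in a single library, against 49.5%. By position, 27 lay between genes, 13 in introns, 1 in a coding exon and 1 in an untranslated region.

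**Figure D3:**
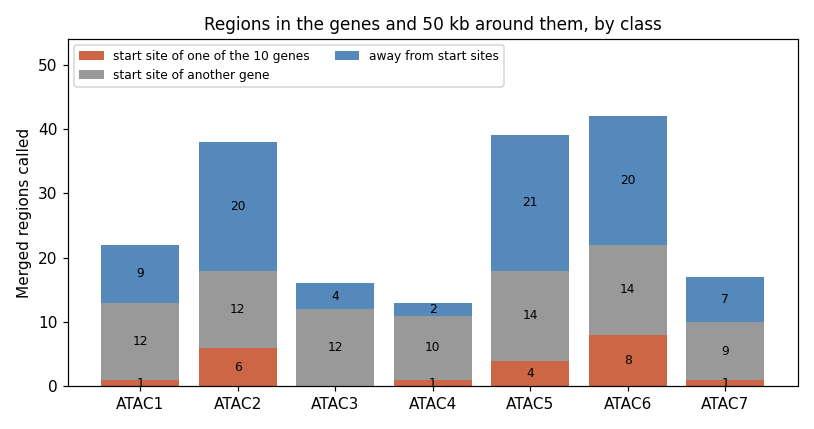
Bars give the merged regions called in each library (x axis) within the 10 genes and 50 kb around them, split by class. Start sites of other genes contribute 9 to 14 in every library, while regions away from start sites range from 2 in ATAC4 to 21 in ATAC5. With lists of equal length, window peaks number 15 to 18 in each library.

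Over the genome, ATAC2, ATAC5 and ATAC6 also had the most genes with peaks away from start sites. A peak away from start sites, in the gene or 50 kb around it, was found for 5 of the 10 genes in ATAC1 (43.7% of all protein-coding genes), 7 in ATAC2 (51.2%), 3 in ATAC3 (24.7%) and 2 in ATAC4 (25.1%). For ATAC5 it was 8 (53.7%), for ATAC6 8 (51.2%) and for ATAC7 4 (24.4%). The genes had a median of 3.0 such peaks in ATAC2, 2.0 in ATAC6 and 1.0 in ATAC5, where the median protein-coding gene had 1.0 in each. Of the 29 regions at start sites, 8 (*Aaas*, *Pmf1*, *Slc25a44*, *Smg5*, *Rps19bp1*, *Smcr7l*, *Atox1* and *G3bp1*) were called in every library, against 35.8% of such regions near all protein-coding genes. Of the 42 away from start sites, 1 was, against 4.15%. All 8 belonged to neighbours and none to the 10 genes. Of 22 protein-coding neighbours with a start site in a window, 8 were called in every library, 9 in none and 5 in between.

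**Figure D4:**
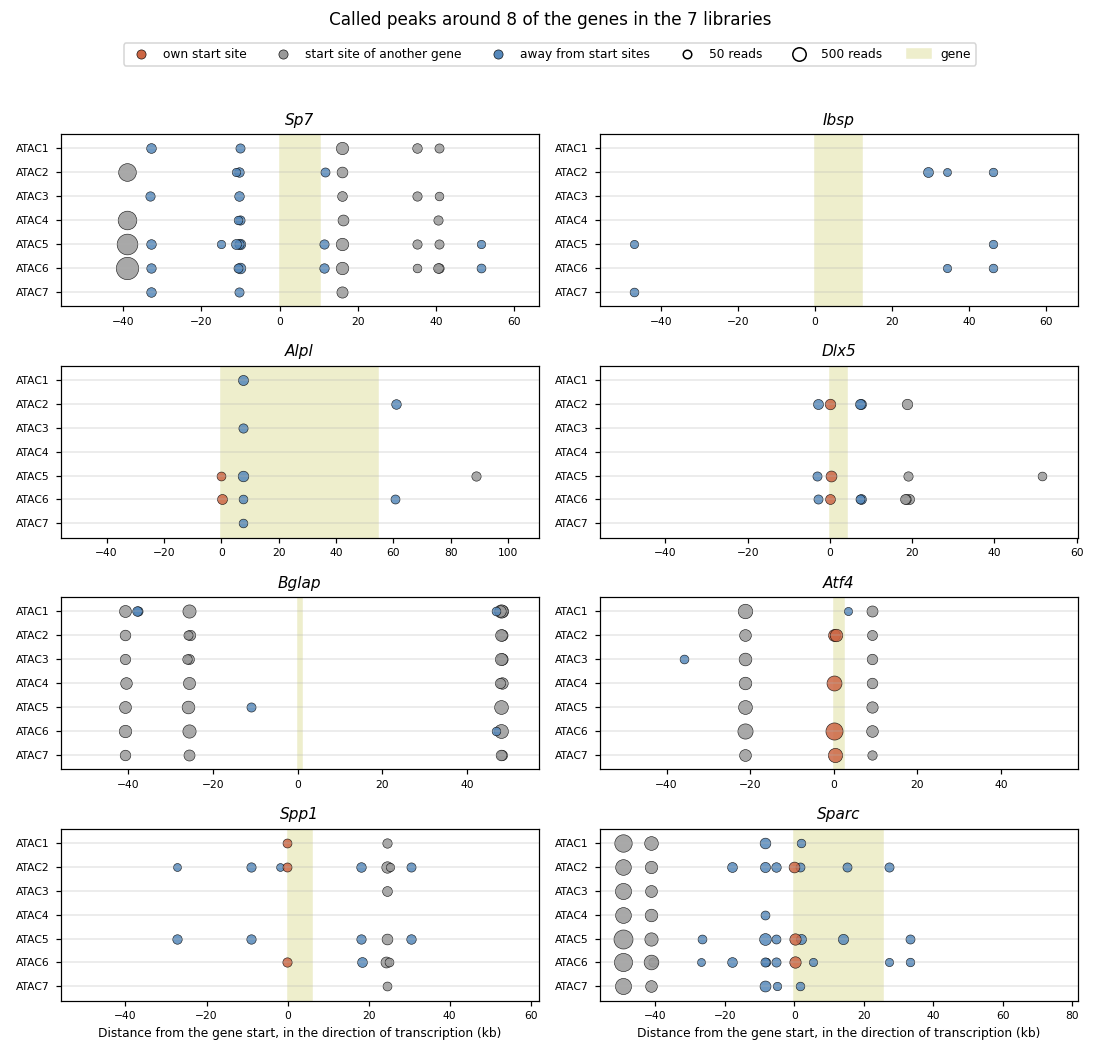
Each point is a called peak, placed by its distance in kb from the gene start in the direction of transcription (x axis) and by library (rows), with its area growing with library reads. Colours give the class and the shaded band is the gene. The *Dlx5* map is empty in ATAC1, ATAC3, ATAC4 and ATAC7, *Sp7* has a peak about 10 kb upstream in all 7 libraries, and *Atf4* has large start-site peaks in 4.

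Compared with other open start sites, those of the 10 genes were weakly read, *Atf4* excepted. In ATAC2 the best start-site peak of the 6 called genes had a median of 154 reads, against 264 over all genes called there. In ATAC5 it was 134.5 for the 4 called genes against 434.5, and in ATAC6 it was 120 for the 7 called genes against 455.5. In the authors' ranking, the median member peak stood 54.5% down the ATAC2 list, 49.3% down the ATAC5 list and 47.4% down the ATAC6 list, where the median start-site peak of all genes stood at 18.8%, 18.1% and 18.7%.

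The members also differed in base composition at the start site. The CpG ratio, observed CpG over that expected from the base content of the 501 bases around the first start site, was under 0.5 in 5 genes: *Bglap* (0.16), *Sparc* (0.171), *Ibsp* (0.238), *Spp1* (0.292) and *Sp7* (0.303). It was higher in *Dlx6* (0.579), *Dlx5* (0.652), *Msx2* (0.708), *Alpl* (0.78) and *Atf4* (0.885). Of all protein-coding genes with a ratio of 0.5 or more, 60.8% were called in every library, 14.5% in none and 24.8% in between. All 5 of these members were in between, with 2 to 4 libraries. Of genes under 0.5, 79.2% were called in none, 7.04% in every library and 13.7% in between. *Bglap*, *Ibsp* and *Sp7* were among those called in none, and *Sparc* and *Spp1* were in between.

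The set of libraries of *Dlx5*, *Dlx6* and *Sparc*, ATAC2, ATAC5 and ATAC6, was the most frequent after none and all, with 413 genes or 1.85% of protein-coding genes. Among the other listed genes it was the set of *Msx1*, a homeodomain relative of *Msx2*, of *Creb3l1*, which acts in collagen secretion, of *Pth1r*, the parathyroid hormone receptor, and of the cartilage genes *Col2a1* and *Matn3*. The set of *Msx2*, ATAC2 and ATAC6, held 95 other genes, among them the cartilage proteoglycan gene *Acan*. That of *Alpl*, ATAC5 and ATAC6, held 166 others and that of *Spp1* 12 others, none of them listed.

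Other genes of bone formation did not all follow this pattern. Of 10 further osteoblast transcription factors, ATAC5 and ATAC6 each called 9, ATAC2 called 8, ATAC1 called 7, ATAC3 called 6, ATAC7 called 5 and ATAC4 called 4. *Cbfb*, the partner of Runx proteins, and *Foxo1* were called in every library, as was *Mef2c*. *Runx2* was called in ATAC1, ATAC2, ATAC5 and ATAC6, and *Dlx3* in none. Of 10 signalling genes, 5 to 8 were called in each library: *Bmp2*, *Bmpr1a*, *Fgfr2*, *Igf1r* and *Lrp6* in all 7, and *Bmp4* and *Wnt10b* in none.

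Bone matrix genes varied between libraries as well. Of 10, 6 were called in ATAC2, ATAC5, ATAC6 and ATAC7 each, 3 in ATAC3, 2 in ATAC1 and 1 in ATAC4. *Fn1*, the fibronectin gene, was called in all 7 libraries and *Col1a1*, which encodes a chain of type I collagen, in all but ATAC4. *Col1a2* was called in ATAC2, ATAC5, ATAC6 and ATAC7. *Bgn*, *Dcn*, *Omd* and *Postn* were called in none. Mineralisation and osteocyte genes did not vary at all: *Ank*, *Enpp1*, *Phospho1* and *Slc20a2*, which handle phosphate and pyrophosphate, were called in all 7 libraries, and *Dmp1*, *Ifitm5*, *Mepe*, *Phex*, *Smpd3* and *Sost* in none.

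Markers of neighbouring lineages gave this context. Of 5 chondrocyte genes, 4 were called in ATAC2, 4 in ATAC6, 3 in ATAC5, 1 in ATAC1, 1 in ATAC7 and 0 in ATAC3 and ATAC4. Of 5 adipocyte genes, *Cebpa* was called in all 7 libraries, *Pparg* in ATAC5, and *Adipoq*, *Fabp4* and *Plin1* in none. Of 3 osteoclast genes found in the annotation, *Acp5* was called in ATAC1 and ATAC6, *Ctsk* in ATAC5 and *Calcr* in none.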

How the data were processed

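Sorted bone marrow stromal cells were profiled by Tn5 ATAC-seq per the study's methods, although the labels' extraction text describes an RNA preparation. The authors aligned reads to mm9 with bowtie and called peaks per library against Input with CisGenome (p limit 1e-05, FDR under 0.01). Read shift, duplicate filtering and multiple alignment were not given in the sources used here. If no shift was made, peak bounds are off by several bases.

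The deposited tables carry no header, and columns were identified from their values. The authors' caller counted reads per outer region, and the deposited values are raw counts for the library and for Input. The deposited fold is a ratio: a constant of the library (1.009 to 1.713) times library reads over Input reads plus 0.01. Rank is used as a score of the authors' order. The authors' caller also wrote signal statistics, used only through that rank. Reads in outer regions summed to 3437628 to 8766021 per library, with shared reads counted repeatedly. Library totals were not given.

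Scaled ratios used the recovered constant without the 0.01. Peaks of all libraries sharing at least 1 base were merged. Coordinates are printed as deposited, and the start may differ by 1 base. The genome was NCBIM37 (mm9) with GENCODE vM1, and all printed sequences were read from it. No peak passed a chromosome end. No test between libraries was made, because each title has 1 library. The assignment of peaks to start sites was tested on simulated data and recovered 2000 of 2000. Python 3.11.15, pandas 2.3.3, scipy 1.17.1 and samtools 1.23.1 were used.

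The 10 genes, the further gene lists and the motifs were chosen with earlier results of these data known. All 10 genes are named, and from each list the 2 genes called in most and in fewest libraries, ties by alphabet. Others named from the lists, and the CpG classes, were chosen after the values were seen. The markers *Spi1*, *Ocstamp* and *Dcstamp* were not matched in the annotation. Alternatives were start-site rules, flank lengths, a fold of at least 5, equal peak numbers, outer bounds and merging within 500 bases. Certain listed items are not reported here.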

Additional observations from a re-analysis of the deposited data

How the results depend on the processing

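No paired analysis was possible because there was only 1 library for each title. The count of genes with a start-site peak in every library was 0 under all settings. The pairs of a gene and a library with a start-site peak numbered 20, and 12 with equal peak numbers, where *Alpl* and *Spp1* lost all calls and *Dlx6* and *Msx2* fell to 1 library each. Peaks in the windows then numbered 15 to 18 in each library, against 15 to 47 with full lists, and peaks away from start sites 1 to 7 against 3 to 23, the latter counted after seeing the data. With a fold of at least 5 the pairs with a start-site peak numbered 16, and *Alpl* and *Msx2* lost all calls. The 71 merged regions became 42 with flanks of 20 kb, 12 in gene bodies alone and 32 with equal peak numbers, where shorter windows and lists hold fewer peaks by construction. The 9 regions called in every library became 3 with flanks of 20 kb, 16 with 100 kb, 0 in gene bodies, 4 with a fold of at least 5 and 1 without the start sites of other genes. The other 19 recomputed summary counts stayed within 1.5 times. Precision is limited by 1 library per title and by peaks of about 50 to 200 reads, and sites without a called peak have no reads in the deposited tables.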
